A study of Mus musculus with 6 samples.

Results

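Clu, Apoe, Abca7, Bin1, Picalm, Cd2ap, Sorl1, Apbb1, Cr1l and Lrp1 are mouse counterparts or relatives of genes that human genetics or biochemistry has tied to Alzheimer disease through lipid carriage, endocytosis and sorting of the amyloid precursor protein, App. All 10 were found by symbol, out of 24318 genes in the table. They were listed by symbol, with earlier results of these libraries known. The data were RNA-seq of total RNA, depleted of ribosomal RNA, from CAD cells, a mouse line of catecholaminergic neuronal origin. One group of 3 libraries came from cells given an siRNA directed at circGigyf2, a circular RNA made from exons of Gigyf2, and is called siCircGigyf2. The other 3 libraries came from the same line given an siRNA labelled NC, taken as the control, and are called siNC. The labels name no genotype, transgene, dose or time, both groups are a single cell line, and whether replicates came from separate cultures is not stated, so a p-value here covers the spread between libraries, which may be technical.

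Amyloid-beta is cut from App once App has been taken up from the cell surface into endosomes, so genes that steer App or its receptors through endosomes are studied as modifiers of the disease. Picalm, Bin1 and Cd2ap act at the clathrin-coated pit and the early endosome, Sorl1 returns cargo from endosomes to the Golgi, and Apbb1 binds the cytoplasmic tail of App. Apoe and Clu are secreted proteins of lipoprotein particles that are made in brain mostly by glia, Lrp1 is a large endocytic receptor for Apoe, Abca7 is a lipid transporter of the plasma membrane, and Cr1l is a rodent complement regulator.

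The unit is FPKM, fragments scaled to transcript length and to each library's mapped fragments, so levels can be compared between genes and between libraries only approximately. FPKM summed to 604881 to 624645 in siCircGigyf2 libraries and to 578627 to 601552 in siNC libraries, ranges that did not overlap. Relative depth, read from the spacing of low values, was 0.802 to 0.914 in siCircGigyf2 with siNC replicate 1 as 1. It was 0.952 and 0.98 for the other siNC libraries. The absolute number of fragments was not given. Gigyf2, the host gene of the target, averaged 21.4 ± 0.330 FPKM (SD, n = 3) in siCircGigyf2 and 23.2 ± 0.0749 FPKM in siNC, a log2 difference of -0.11 (limma adjusted p = 0.0287) that is only a weak check of the labels, because the row pools linear and circular RNA. This call was lost with the replicate number as a block (adjusted p = 0.0598) and without any library other than siCircGigyf2 replicate 1 (adjusted p from 0.0659 to 0.0845). Of the defining markers of other brain cells, Trem2, P2ry12, Itgam, Aqp4, Slc1a3, Gja1, Mag, Olig1 and Olig2 were listed at 0 in all 6 libraries. The RNA of the line showed the sympathetic factors Phox2a (55.4 to 70.9 FPKM) and Hand2 (146 to 170.5 FPKM). Th, the enzyme that starts catecholamine synthesis, was low (2.82 to 4.85 FPKM), as were Dbh (0.925 to 2.14 FPKM) and Ddc (0.235 to 0.493 FPKM). Slc6a2, the noradrenaline transporter gene, was listed at 0 throughout. Of 13 catecholaminergic markers, 11 were tested at a limma adjusted p of 0.05. Among them 2 rose, with Hand2, and 5 fell, with Phox2a (63.6%, beside 38.2% of all genes tested).

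The 10 genes spanned a wide range of levels in these cells. Picalm was the most abundant, at 122 to 136 FPKM over the 6 libraries, and Sorl1 the least, at 0.0812 to 0.168 FPKM, so that their means differed 1075-fold. Between them, in order of mean FPKM, lay Clu (56.4), Bin1 (38.8), Apbb1 (36.7), Lrp1 (27.4), Cd2ap (20.1), Cr1l (18.8), Abca7 (17.9) and Apoe (2.80). Of the genes above 0, 42.4% had a mean at or below that of Apoe and 20.1% one at or below that of Sorl1. All libraries of Picalm lay above all of Clu, and the same held for Clu over Bin1, Apbb1 over Lrp1, Lrp1 over Cd2ap, Abca7 over Apoe and Apoe over Sorl1. The remaining neighbours in the order did not separate. Bin1 exceeded Apbb1 in 3 of 3 siNC libraries and in 0 of 3 siCircGigyf2 libraries, and Cd2ap exceeded Cr1l in the same 3 and 0, so both pairs changed places between the groups. Cr1l exceeded Abca7 in 5 of 6 libraries.

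**Figure D1:**
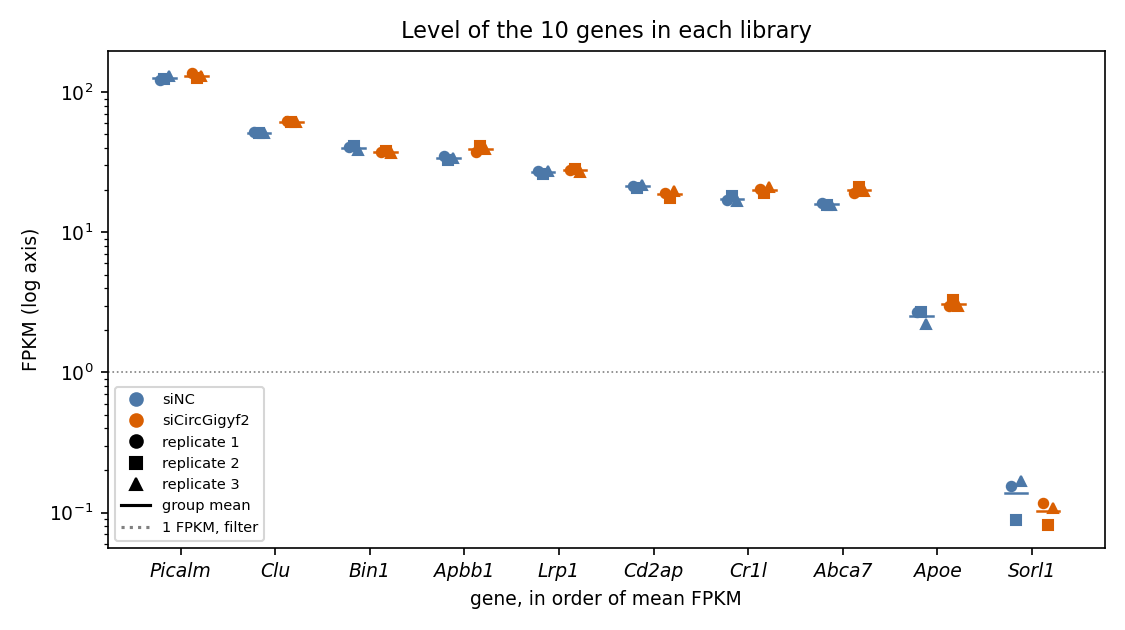
FPKM of the 10 genes in each library on a log axis, with colour for the group, marker shape for the replicate and a bar for the group mean. Picalm sits highest at 122 to 136 FPKM, Apoe at 2.20 to 3.29 FPKM, and Sorl1 is the only gene below the filter of 1 FPKM.

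Of these genes, 9 passed the filter of a mean of at least 1 FPKM and were tested with limma on log2(FPKM + 1). Abca7, Clu, Cr1l and Apbb1 rose with the circGigyf2 siRNA, Cd2ap fell, and Bin1, Apoe, Picalm and Lrp1 did not pass. That makes 5 of 9 past an adjusted p of 0.05 (55.6%), beside 38.2% of the 11420 genes tested, with 4 higher beside 19.5% of all genes and 1 lower beside 18.7%. The groups did not overlap for 7 of the 9, beside 51% of all genes. The median log2 difference of the 9 was 0.21, and that of all genes tested was 0.00035. No change was large: the log2 differences of the 5 called genes were between 0.17 and 0.31 in size, beside a median of 0.25 for all called genes, and 0 of the 9 reached 1.5-fold, where 160 of all genes did. In bulk RNA a change in the number of cells of a kind and a change in RNA per cell cannot be told apart.

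**Figure D2:**
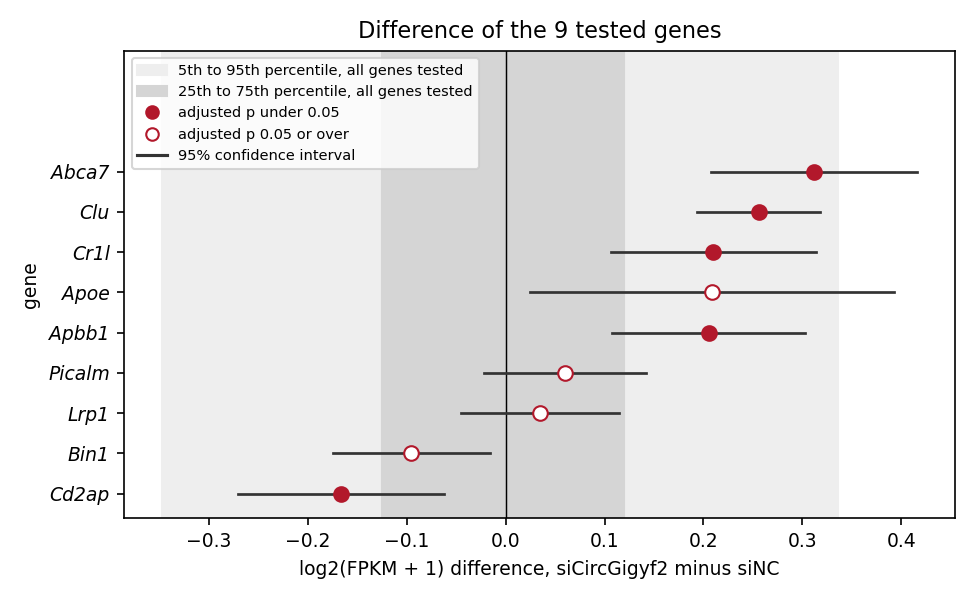
Log2(FPKM + 1) difference (siCircGigyf2 minus siNC) of the 9 tested genes, with 95% confidence intervals; filled points passed a limma adjusted p of 0.05 and the grey bands hold the middle of all genes tested. Abca7 lies farthest right at 0.31 and Cd2ap farthest left at -0.17.

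Of the lipid members, Abca7 and Clu rose, and Apoe and Lrp1 did not pass the test. Abca7 belongs to the ABCA family of lipid exporters and has been linked to phagocytosis. In mouse it lies on chr10:79996494-80015572 of GRCm38. It was at 18.9, 21.1 and 19.8 FPKM in siCircGigyf2 and at 16.3, 15.6 and 15.7 FPKM in siNC. Every siCircGigyf2 library lay above every siNC library, and the rise of 0.31 (SE 0.046, limma adjusted p = 0.00091, 1.26-fold by mean FPKM) was larger in size than that of 87.5% of all genes tested. Its call held under all 14 alternative analyses, with log2 differences from 0.27 to 0.35. Abca1, the closest relative in the family and the main cellular exporter of cholesterol to Apoe, was at 8.08 to 8.76 FPKM and did not pass (log2 difference 0.05, SE 0.046, limma adjusted p = 0.379).

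The promoter of Abca7 is printed because this gene had the largest log2 difference of the 9 tested genes. Those of Cr1l and Cd2ap, the other called genes with 1 annotated start each, stand below for contrast. The windows are RefSeq's on GRCm38.p6, from 250 bases before the start to 50 from the start on, written 5′ to 3′ on the strand of the gene, and 8 of the 10 genes had an entry. Capitals mark matches on either strand to any of 6 motifs: the E-box CACGTG, the GC box GGGCGG, the CCAAT box CCAAT, the TATA box TATAAA, the cAMP response element TGACGTCA and the ETS core CCGGAAG. No letters overlap between the matches printed here. The Abca7 window, chr10:79996244-79996543 on the plus strand, held CCAAT at positions -99 and -63 and GGGCGG at -46, counted from the start as 1 with no 0. Of 32851 such windows, 37.4% held CCAAT and 35.7% GGGCGG, so neither match is rare.

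Abca7: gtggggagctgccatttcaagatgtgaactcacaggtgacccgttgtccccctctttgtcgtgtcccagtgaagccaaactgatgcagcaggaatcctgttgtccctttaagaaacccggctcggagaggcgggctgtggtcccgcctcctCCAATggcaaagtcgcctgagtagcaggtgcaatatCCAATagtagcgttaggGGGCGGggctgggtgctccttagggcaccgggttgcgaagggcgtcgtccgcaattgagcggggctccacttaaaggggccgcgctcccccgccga

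Clu, clusterin or apolipoprotein J, is a secreted chaperone that binds amyloid-beta and also restrains the terminal complement complex. The gene lies on chr14:65968483-65981547 of GRCm38. Its libraries read 62.0, 61.3 and 61.2 FPKM in siCircGigyf2 and 51.9, 51.1 and 51.0 FPKM in siNC, the tightest replicates of the 9 genes relative to their difference. Groups were well apart, and the rise of 0.26 (SE 0.027, limma adjusted p = 0.000173) held in all 14 alternatives, between 0.23 and 0.26.

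Apoe, the lipid carrier whose human alleles carry the strongest common genetic risk of late-onset disease, was weakly expressed. It lies on chr7:19696109-19699188 of GRCm38. Values were 2.98, 3.29 and 2.96 FPKM in siCircGigyf2 against 2.69, 2.70 and 2.20 FPKM in siNC. These ranges did not overlap, but siNC replicate 3 stood below the other siNC libraries, and the log2 difference of 0.21 (SE 0.081, 95% interval 0.025 to 0.39) did not pass (limma adjusted p = 0.0714). Without siNC replicate 3 the log2 difference was 0.14, and with no variance trend in the fit the gene came just under the threshold (adjusted p = 0.0496). The difference was close in size to those of Cr1l and Apbb1, but its interval was wider. Apoe and Clu are glial products in brain. Of 13 microglial markers, 11 stayed below 1 FPKM in every library, as did 7 of 9 astrocyte and 8 of 9 oligodendrocyte markers. The summed FPKM of the astrocyte list was 104 to 114 in siCircGigyf2 and 107 to 112 in siNC. The oligodendrocyte list summed to 8.01 to 9.68 and 8.17 to 10.4. Tmem119, a microglial marker, was at 0.465 to 0.916 FPKM in siCircGigyf2 and at 1.22 to 1.59 FPKM in siNC. Its mean reached the filter of 1 FPKM only through the siNC libraries, so its fall is given no weight. The part of these lists in the differences of Clu and Apoe was not tested.

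Lrp1, an endocytic receptor of the lipoprotein receptor family that clears Apoe particles and takes up App, lies on chr10:127538161-127621148 of GRCm38. It was at 27.7, 28.3 and 27.1 FPKM in siCircGigyf2 and 27.4, 26.2 and 27.5 FPKM in siNC. The groups overlapped, and the log2 difference was 0.03 with a 95% interval of -0.045 to 0.11 (limma adjusted p = 0.468). Its large relative Lrp1b was at most 0.0101 FPKM.

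Of 18 genes of the lipoprotein receptor family and its helpers, 12 were tested, and 3 rose and 1 fell (33.3%, median log2 difference 0.04; 2 and 2 after quantile normalization or without siNC replicate 2). The fall was the largest of these. Mylip, a ubiquitin ligase that sends lipoprotein receptors to degradation, went from 11.1, 10.2 and 11.8 FPKM in siNC to 6.44, 6.10 and 7.43 FPKM in siCircGigyf2 (log2 difference -0.66, SE 0.075, limma adjusted p = 0.000237). Its groups were far apart. Lrpap1, the chaperone that keeps Lrp1 and its relatives free of ligand on the way to the surface, rose by 0.34 (SE 0.051, limma adjusted p = 0.00105), at 28.2 to 31.1 FPKM beside 22.2 to 24.7 FPKM. Lrp10 rose by 0.46, from 7.33 to 9.44 FPKM in siNC to 11.8 to 13.2 FPKM. Lrp11 rose by 0.11, a call lost after quantile normalization (adjusted p = 0.077), with no variance trend (0.075) and without any library but siCircGigyf2 replicate 2 (0.0577 to 0.0914). Vldlr and Lrp3 were listed at 0 in all 6 libraries.

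Genes of lipid export and lipoproteins moved in both directions. With Clu, Abca7 and Apoe included, 15 of 24 in the table were tested, 5 rose and 3 fell (53.3%, median log2 difference 0.05). Nr1h2, the sterol-sensing receptor LXR-beta that drives transcription of Mylip and Abca1, fell by 0.36 (SE 0.047, limma adjusted p = 0.000494), from 16.5, 17.5 and 18.5 FPKM in siNC to 13.3, 13.7 and 13.2 FPKM. Npc1, which moves cholesterol out of lysosomes, fell by 0.38 (SE 0.059, adjusted p = 0.00124), while Abca3, a relative of Abca7, rose by 0.28 (SE 0.049) and Osbp, an oxysterol-binding protein, by 0.20 (SE 0.035). For each of these 4 the groups were fully apart.

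Of the endocytic members, Cd2ap fell, and Picalm and Bin1 did not pass the test. Picalm, which recruits clathrin to the membrane and limits the size of the coated vesicle, lies on chr7:90130213-90213465 of GRCm38. It was at 136, 127 and 130.4 FPKM in siCircGigyf2 and at 122, 125 and 130.1 FPKM in siNC. The groups overlapped, the log2 difference was 0.06 (95% interval -0.022 to 0.14), and the test did not pass (limma adjusted p = 0.218). Snap91, its neuronal paralog, was 5.69-fold lower in mean level at 22.2 to 22.9 FPKM (log2 difference -0.02, adjusted p = 0.674).

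Bin1, an amphiphysin that bends membranes and shapes endosomal recycling, was at 37.2, 38.3 and 37.0 FPKM in siCircGigyf2 and 40.8, 41.0 and 38.6 FPKM in siNC. Every siCircGigyf2 library lay below every siNC library, yet by so little that the log2 difference of -0.10 (SE 0.035, 95% interval -0.17 to -0.016) missed the threshold (limma adjusted p = 0.0581). Leaving out siNC replicate 3, the lowest of its group, brought the adjusted p to 0.039 and the log2 difference to -0.12. The other 13 alternatives left it on the same side, with adjusted p from 0.0521 to 0.166. Its paralog Amph was at 19.0 to 20.6 FPKM (log2 difference 0.06, limma adjusted p = 0.199).

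Cd2ap, a scaffold between endocytic adaptors and actin, was the member that fell. Its position is chr17:42792951-42876665 of GRCm38. It read 19.2, 17.7 and 19.7 FPKM in siCircGigyf2 and 21.5, 20.6 and 21.7 FPKM in siNC. The groups did not overlap, with siCircGigyf2 replicate 2 the lowest, and the log2 difference was -0.17 (SE 0.046, limma adjusted p = 0.0199). The call was lost without siCircGigyf2 replicate 2 (log2 difference -0.12, adjusted p = 0.0515), without siNC replicate 1 (-0.16, 0.061) and without siNC replicate 3 (-0.15, 0.0665). Sh3kbp1, the paralog that shares its 3 SH3 domains, stood at nearly the same level, 19.6 to 21.3 FPKM, with a log2 difference of -0.07 that did not pass (limma adjusted p = 0.173). The promoter of Cd2ap, chr17:42876375-42876674 on the minus strand, is rich in G and C (77%, where the median of all windows is 52.7%) and holds 41 CG pairs (median 7) and 1 GC box, at position 23.

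Cd2ap: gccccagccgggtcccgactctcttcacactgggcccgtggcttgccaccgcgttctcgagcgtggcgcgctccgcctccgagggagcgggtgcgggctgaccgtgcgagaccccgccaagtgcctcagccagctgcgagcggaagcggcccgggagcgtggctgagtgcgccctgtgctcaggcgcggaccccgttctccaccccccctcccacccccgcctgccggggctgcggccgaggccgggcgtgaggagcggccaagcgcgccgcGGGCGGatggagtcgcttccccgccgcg

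Around these adaptors, 36 of 40 clathrin endocytosis genes were tested, and 11 rose and 5 fell, Cd2ap among the latter (44.4%, median log2 difference 0.04). Without siNC replicate 1, 10 rose and 3 fell, and Cd2ap was among the calls lost. Dnm3, a neuronal dynamin that pinches vesicles off, rose by 0.69 (SE 0.074, limma adjusted p = 0.000166), from 4.03 to 4.27 FPKM in siNC to 6.45 to 7.84 FPKM. Ap2s1, the small subunit of the AP-2 adaptor, rose by 0.31, with 81.6 to 86.8 FPKM beside 66.9 to 68.8 FPKM. Hip1r, which couples coats to actin, fell by 0.47 (SE 0.052), and the clathrin light chain gene Clta fell by 0.23 (SE 0.030), from 136 to 139 FPKM down to 113 to 119 FPKM. The adjusted p of these 4 lay at or below 0.000441. Clathrin heavy chain, Cltc, was at 184 to 192 FPKM and had a log2 difference of 0.02 (limma adjusted p = 0.703).

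Sorl1 is a sorting receptor of both the lipoprotein receptor and the Vps10p families that carries App back from endosomes through the retromer complex. It lies on chr9:41964720-42124297 of GRCm38. Its values were 0.118, 0.0812 and 0.108 FPKM in siCircGigyf2 and 0.154, 0.0885 and 0.168 FPKM in siNC. The groups overlapped, and the gene was left out of the test by the filter. In a fit of every gene above 0 its log2 difference was -0.04 (95% interval -0.13 to 0.038, limma adjusted p = 0.443), on a scale where the pseudocount of 1 outweighs such values. Sort1, sortilin, a receptor of the same Vps10p family, was present at 13.6 to 15.0 FPKM, with a log2 difference of -0.04 (adjusted p = 0.459).

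The retromer and sortilin list, in which 26 of 30 genes were tested, had 9 that rose and 7 that fell (61.5%, median log2 difference 0.02). Ap1b1, a subunit of the AP-1 adaptor of the Golgi and endosomes, fell by 0.63 (SE 0.039, limma adjusted p = 1.79e-05), from 26.6, 26.4 and 27.4 FPKM in siNC to 16.3, 17.3 and 17.3 FPKM. Snx3, a sorting nexin of retromer, rose by 0.42 (SE 0.031), at 217 to 225 FPKM beside 160.2 to 169 FPKM. Snx1, another retromer sorting nexin, fell by 0.44 (SE 0.039) and Ap3b1, of the AP-3 adaptor, by 0.22 (SE 0.028). Of the core subunits, Vps29 rose by 0.20 (limma adjusted p = 0.00727), and Vps35, named outside the rule for naming genes as were Vps29 and Cltc, was at 93.8 to 104 FPKM and did not pass, with a log2 difference of 0.02 (adjusted p = 0.673).

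Apbb1, also called Fe65, is an adaptor that binds the intracellular tail of App and takes part in its signalling to the nucleus. It lies on chr7:105558483-105581653 of GRCm38. The libraries read 37.4, 41.1 and 39.5 FPKM in siCircGigyf2 and 35.2, 32.7 and 34.0 FPKM in siNC. Groups did not overlap, and the rise was 0.21 (SE 0.043, limma adjusted p = 0.00562), from 0.17 to 0.24 and called in all 14 alternatives. Its paralogs did not pass: Apbb2 was at 23.4 to 24.6 FPKM with a log2 difference of -0.01 (adjusted p = 0.923), and Apbb3 at 3.14 to 3.89 FPKM with -0.12 (adjusted p = 0.206). Whether Apbb1 differed from them in its response was not tested.

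Among 13 App adaptors 11 were tested, and 2 rose and 4 fell (54.5%, median log2 difference -0.12). The 4 that fell became 2 with no filter on low values and without siCircGigyf2 replicate 2 or 3 or siNC replicate 1 or 3, when Apba3 and Kat5 lost their calls. Apba1, or Mint1, rose by 0.48 (SE 0.062, limma adjusted p = 0.00048), at 3.79 to 3.91 FPKM beside 2.41 to 2.61 FPKM. Mapk8ip1, a scaffold of the JNK pathway that links App to kinesin, fell by 0.36 (SE 0.038), from 34.5 to 36.1 FPKM to 26.2 to 28.0 FPKM. The signalling adaptor Shc1 fell by 0.20 (SE 0.029). Apba3 fell by 0.25 (SE 0.081, adjusted p = 0.0402), although its groups overlapped, and the call was lost without a filter on low values (adjusted p = 0.0987), after quantile normalization (0.0601) and without siCircGigyf2 replicate 2 (0.104) or 3 (0.102) or siNC replicate 1 (0.125) or 3 (0.127). Kat5, a histone acetyltransferase that binds Apbb1, fell by 0.15 (adjusted p = 0.045), and its call was lost in 7 of the 14 alternatives. App itself rose: it was at 196 to 198 FPKM in siCircGigyf2 and 162 to 166 FPKM in siNC, a log2 difference of 0.26 (SE 0.026, adjusted p = 0.000133). Of 13 tested genes of the App family and secretases, 5 rose and 4 fell (69.2%). Bace2, a homologue of the beta-secretase gene, rose by 0.42 (limma adjusted p = 2.21e-05). Bace1, the beta-secretase gene itself, fell, with a log2 difference of -0.26 (SE 0.052, limma adjusted p = 0.00407). Adam10 and Adam17 of the same list also fell (log2 differences -0.22 and -0.31, adjusted p = 0.00272 and 0.00192). Of the App relatives, Aplp1 rose by 0.34 (adjusted p = 0.000186), and Aplp2 fell, with a log2 difference of -0.27 (adjusted p = 0.000165).

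Cr1l, known in mouse as Crry, is a membrane protein that stops complement activation on the surface of the cell, and stands here for human CR1 by family, not by one-to-one descent. It lies on chr1:195097382-195131586 of GRCm38. Values were 20.3, 19.2 and 21.0 FPKM in siCircGigyf2 and 17.1, 18.1 and 16.8 FPKM in siNC. The lowest siCircGigyf2 library lay above the highest siNC library, and the rise of 0.21 (SE 0.046, limma adjusted p = 0.0066) held in all 14 alternatives, from 0.18 to 0.24. Its promoter, chr1:195131521-195131820 on the minus strand, held none of the 6 motifs. That window was poorer in G and C (41.3%) and in CG pairs (6) than that of Abca7 (60.7% and 19). The medians of all windows are 52.7% and 7, so the number of CG pairs in Cr1l was near the median.

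Cr1l: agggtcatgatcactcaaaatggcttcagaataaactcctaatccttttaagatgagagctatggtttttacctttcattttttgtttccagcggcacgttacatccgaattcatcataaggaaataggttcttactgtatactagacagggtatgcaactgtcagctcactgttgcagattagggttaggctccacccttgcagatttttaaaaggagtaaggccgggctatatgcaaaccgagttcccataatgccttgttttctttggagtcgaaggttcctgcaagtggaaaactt

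Other complement regulators were hardly expressed. Of 16 in the list, 12 stayed below 1 FPKM in every library, and 3 were tested: Clu and Cr1l, which rose, and C1qbp, a mitochondrial protein that also binds C1q (94.9 to 107 FPKM, log2 difference -0.05, limma adjusted p = 0.31).

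**Figure D3:**
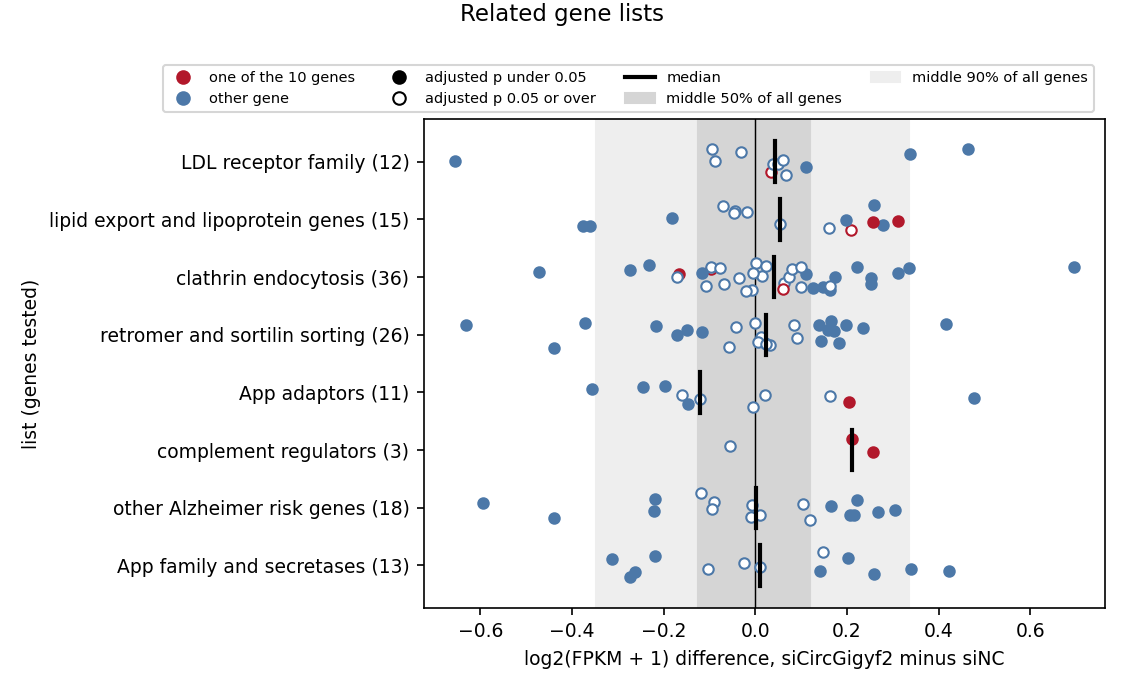
Log2(FPKM + 1) difference (siCircGigyf2 minus siNC) of each tested gene in 8 related lists, with the 10 genes in red where tested, filled points past a limma adjusted p of 0.05, black bars at list medians and grey bands for all genes tested. Each list but complement regulators holds called genes on both sides of 0, and medians lie from -0.12 for the App adaptors to 0.21 for the complement regulators.

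A further list held 37 genes near other human Alzheimer risk loci. Many are microglial, and 18 were below 1 FPKM in every library. Of 18 tested, 6 rose and 4 fell (55.6%, median log2 difference 0.0023). Grn, progranulin, a secreted protein handled by lysosomes, rose by 0.22 (SE 0.035, limma adjusted p = 0.00129), at 57.1, 58.5 and 60.7 FPKM beside 49.5, 49.4 and 51.8 FPKM. Tmem106b, a lysosomal membrane protein, rose by 0.30 (SE 0.047), at 30.1 to 33.6 FPKM beside 25.1 to 26.8 FPKM. Tspan14, a tetraspanin partner of Adam10, fell by 0.59 (SE 0.058), from 6.46 to 6.94 FPKM to 3.91 to 4.34 FPKM, and Snx1 of the retromer list belongs here as well.

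The 3′ UTRs were searched for GCCTACA, a word picked earlier from the genes that fell in these same libraries and so no independent evidence. None of the 10 genes, Cd2ap included, held it in the GENCODE M21 transcript with the longest coding sequence, where 6.49% of 10444 tested genes with a 3′ UTR did. The 3′ UTRs searched ran from 72 bases in Cr1l to 5868 in Picalm. With the word, the median log2 difference was -0.098 and 38.9% of genes fell, and without it 0.004 and 17.8%.

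Likeness of pattern was described by Pearson's r of log2(FPKM + 1) over the 6 libraries, which all carry the split into groups; r within a group was not computed. Clu was most like Abl2 (r = 0.999), a tyrosine kinase, and Sv2c (r = 0.998), a synaptic vesicle protein, and 993 genes reached an r of 0.95 with it. For Abca7 the nearest were Prph, an intermediate filament (r = 0.999), and Jund, a transcription factor (r = 0.999), with 424 genes at that level. Bin1, with 52 such genes, was nearest to Foxm1 (r = 0.992) and Aurkb (r = 0.99), both genes of mitosis, and Cd2ap, with 136, to Wrap53 (r = 0.996) and Ndufv3 (r = 0.995). Apbb1 lay closest to Eif4h and Aacs (r = 0.998 and 0.997), Cr1l to Tgfb1i1 and Pik3r3 (0.994 and 0.993), Apoe to St6galnac4 and Znhit1 (0.995 and 0.993), Picalm to Glmn (0.995), and Lrp1 to Nacad and Stk40 (0.987 and 0.975).

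**Figure D4:**
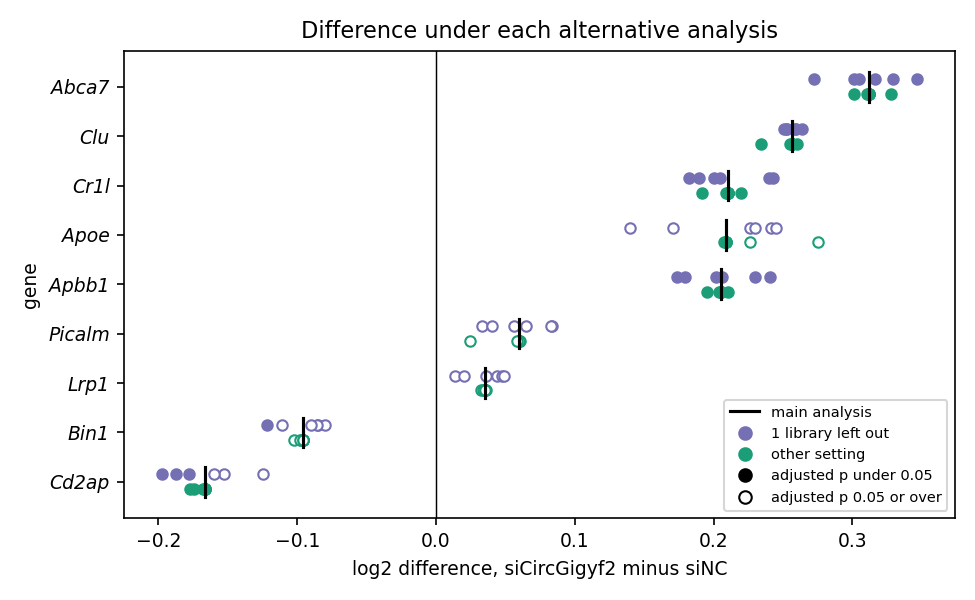
Log2 difference of each tested gene under every alternative analysis, with a black bar for the main analysis, purple points for fits without 1 library, green points for other settings and filled points past an adjusted p of 0.05. Abca7, Clu, Cr1l and Apbb1 stay filled throughout, Cd2ap loses its call in 3 fits without 1 library, and Apoe moves between 0.14 and 0.28.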

How the data were processed

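The authors deposited 1 table of FPKM per gene symbol, with 1 column per library, matched to samples by title. Per the submitters' processing notes the build was mm9; aligner, quantifier, annotation and strand handling are not given in the sources used here, so overlapping antisense genes cannot be told apart. A count model does not suit FPKM. Genes with a mean of at least 1 FPKM (11420) were tested on log2(FPKM + 1), which understates changes of low genes, with limma 3.58.1 in R 4.3.3 (2 groups, empirical Bayes with a variance trend, two-sided, Benjamini-Hochberg over all genes tested). The fit was tested on simulated data. Another 14 fits changed the pseudocount (0.1), filter (none or 5 FPKM), scaling, replicate block, variance model or left out 1 library each. Named genes were the 10 members, up to 4 called non-members with the smallest p per list, 2 nearest genes per member and Gigyf2; paralogs, cell type markers and some others stand outside that rule. Other list genes are given in counts, and some genes are not reported here. The members and lists were chosen with earlier results of these data known. Coordinates and sequences came from GENCODE M21 and RefSeq on GRCm38, joined by symbol, not from mm9; no sequence or position is given for Bin1. Python 3.11.15, pandas 2.3.3, numpy 2.4.6 and matplotlib 3.10.9 were used.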

Additional observations from a re-analysis of the deposited data

How the results depend on the processing

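The number of the 10 genes called was 5 or 6 under each of the 8 settings that kept all libraries and 4 to 5 when 1 library was left out. Over all genes the count was 4367, from 3767 to 4423 under those settings and from 3521 to 3933 without 1 library. No log2 difference of the 9 tested genes changed sign in any of the 14 fits. With the replicate number as a block, 5 of the 10 genes and 3973 of all genes were called, and no call among the 10 changed. The numbers were not shown to pair the libraries: deviations from the group means of same-numbered libraries correlated at 0.163, -0.0208 and 0.00253, and siCircGigyf2 replicate 2 correlated best with siNC replicate 3 (0.131). Apoe has no value under the filter of 5 FPKM, and Sorl1 has one only without a filter. Absolute depth was not given, which limits what can be said of genes as low as Apoe and Sorl1.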
